A study of Mus musculus with 15 samples.

Results

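Retinal endothelial cells from mice without the Wnt co-receptor Lrp5 were compared with those of wild-type mice. The comparison took the 3 arrays labelled Lrp5-/- (Lrp5 KO 1 to 3) and the 6 labelled wild type (wild type 1 to 6), 9 of the 15 arrays of the series, and no measured value entered that choice. Each array was hybridised with RNA pooled from 5 to 10 adult mice of a C57Bl6/129 mixed background, labelled as mixed gender. The cells were isolated from retina on anti-PECAM beads, PECAM being a surface protein of endothelium. The remaining arrays, 3 labelled Fz4-/- (Fz4 KO) and 3 labelled Norrin KO, had been made the same way. They entered the estimate of the spread and were set against Lrp5 KO where stated. All groups were read on 1 type of Affymetrix mouse array, and 18194 genes were measured by a probe set that named that gene alone. Values are log2 signals, in which a difference of 1 is a doubling. A gene was said to rise or fall where its adjusted p in limma was under 0.05. The labels do not say how Lrp5 was deleted, nor whether the pools came from separate litters, and p-values here rest on how far pools of 1 genotype differed.

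In the canonical Wnt pathway a ligand joins a Frizzled receptor to an Lrp5 or Lrp6 co-receptor, which keeps beta-catenin from being degraded and lets it act with TCF and LEF factors on target genes. In the retina the ligand is Norrin, a secreted protein that is no Wnt but binds Frizzled4, the product of Fzd4, and signals through Lrp5 in endothelial cells with the help of the tetraspanin Tspan12. The pathway is needed for the deep capillary layers of the retina and for the blood-retina barrier, the tight junctions and selective carriers that separate blood from neural tissue.

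The arrays fell by genotype before any gene was singled out. On the first principal component (41.9% of the variance) the genotypes lay apart, with the Lrp5 KO arrays at 41.9 to 70.3 and wild type at -34.5 to -15.1. Correlations were 0.972 to 0.991 within Lrp5 KO, 0.962 to 0.992 within wild type and 0.946 to 0.974 between them. Lrp5 KO 1 and wild type 4 stood apart together on the second component (27.8% of the variance, at 35 and 70.2), and their deviations from their group means correlated at 0.661. Their spike control signals correlated at 0.957, and their upper quartiles, 8.11 and 8.07, were the lowest. Counts are therefore also given without them. The label of mixed gender did not match every pool: Xist read 5.9 and 4.76 on Lrp5 KO 1 and 2, where the Y-linked Eif2s3y read 10.11 and 10.48, while Lrp5 KO 3 read 12.21 and 3.21. The same held in wild type, where Xist was high and Eif2s3y low on wild type 3 (11.86 and 2.69) and 6 (12.27 and 2.81), and the reverse on wild type 4 (5.99 and 10.29) and 5 (4.88 and 10.22). Both were high on wild type 1 and 2. Of the 16 general endothelial markers none had all arrays below the median gene (7.02), and their summed level was 16.06 to 16.15 in Lrp5 KO and 16.1 to 16.29 in wild type. Of these markers Kdr (0.74) and Emcn (0.88) rose, and Cldn5 (-1.26) and Tek (-0.70) fell.

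The deleted gene itself checked the labels. Lrp5, measured by 1 probe set, read 4.40, 5.07 and 5.25 on the Lrp5 KO arrays against 7.22 to 7.95 in wild type (median 7.71). The groups did not overlap, with a difference of -2.78 ± 0.21 (SE, n = 3 and 6) and an adjusted p of 6.51e-07. Its mean was 7.87 in Fz4 KO and 7.95 in Norrin KO, so the low signal was seen with the Lrp5-/- label and not with the other 2 mutant labels. Which part of the transcript the probe set reads is not known here.

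Of the 18194 genes, 2347 (12.9%) passed between Lrp5 KO and wild type, 1025 higher (5.63%) and 1322 lower (7.27%) in Lrp5 KO. Each gene was read by its brightest probe set. Of the 2592 other probe sets of these genes, 891 passed in the same direction and 1 in the opposite one. In 919 of the higher genes all 3 Lrp5 KO arrays lay above all 6 wild-type arrays, and in 1132 of the lower genes they lay below. These genes had already passed on the same values, so the counts add no separate support. Genes without overlap were not counted over all 18194. At least a doubling was seen in 535 higher and 523 lower genes, an 8-fold change in 46 and 39, and a 16-fold change in 23 and 17. The median difference of all genes was -0.017. The counts moved with single arrays: 697 genes were lower without Lrp5 KO 1, and 667 and 678 were higher without Lrp5 KO 2 and Lrp5 KO 3. Without Lrp5 KO 1 and wild type 4 together 867 genes were higher and 877 lower, and 1570 of the 1744 were among the 2347, all in the same direction. After seeing the data, Lrp5 KO 1, 2 and 3 were also matched with wild type 4, 5 and 6, whose deviations correlated at 0.661, 0.335 and 0.257. Then 1047 genes were higher and 834 lower, so the balance between rises and falls turned. It turned without matching too: against wild type 4 to 6, 778 were higher and 613 lower. The gene lists below are set beside the 12.9%: in 6 of the 46 lists the share called was no larger. The lists were chosen with earlier results of these data known, so a larger share is no test of a list.

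**Figure D1:**
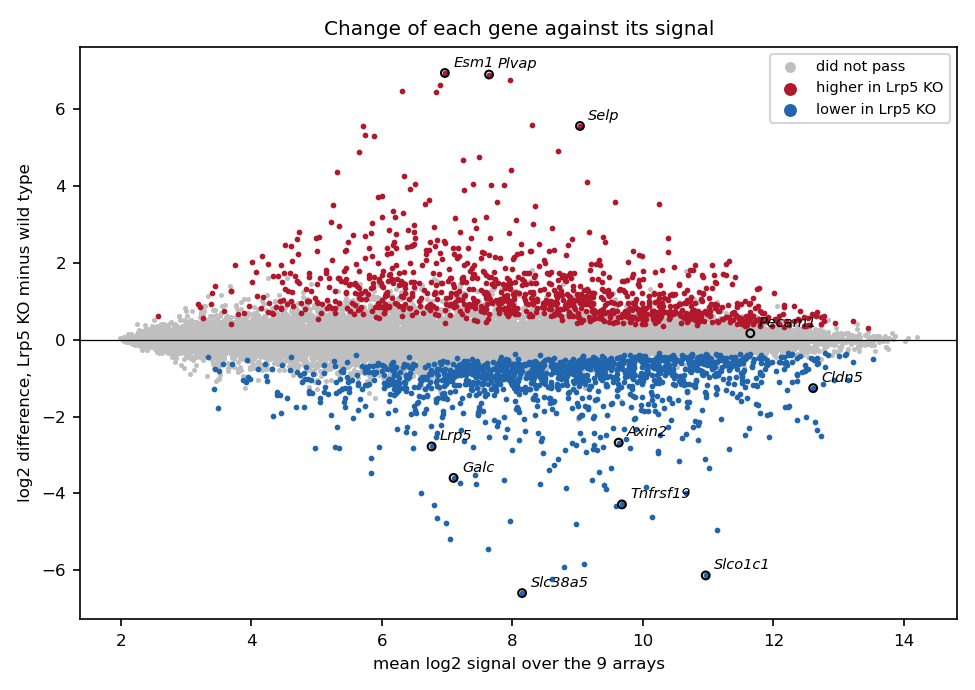
Log2 difference of each of the 18194 genes, Lrp5 KO minus wild type, against its mean log2 signal over the 9 arrays; red and blue points passed the test as higher and lower. Esm1 and Plvap lie at the top, Slc38a5 at the bottom, and Pecam1 near 0.

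Most of the largest rises were in genes of low signal in wild type. Esm1, a secreted proteoglycan of sprouting tip cells, read 11.71, 11.51 and 11.58 on Lrp5 KO 1 to 3 against 3.31 to 5.46 in wild type (median 4.81), a difference of 6.95 ± 0.33 (SE). Plvap, the diaphragm protein of fenestrae and caveolae, read 12.28, 12.31 and 12.17 against 4.69 to 6.01 (median 5.34), a difference of 6.91. The water channel gene Aqp1 read 12.54, 12.49 and 12.38 against 4.72 to 6.47 (median 5.84), a difference of 6.76. In each of these the gap between the groups was several times their spread, and the Lrp5 KO arrays lay within 0.3 of each other. Col15a1, a basement membrane collagen, rose by 6.63, and Gpihbp1, which holds lipoprotein lipase on the capillary wall, by 6.46. The remaining 10 of the 15 largest rises were Btnl9 (6.47), Inhbb (5.59), Cd300lg (5.58), Selp (5.57), Cmah (5.33), Adam12 (5.30), Exoc3l2 (4.91), Apln (4.90), Fam167b (4.77) and Rbp7 (4.68). Of the 15, 11 had a wild-type mean below the lowest array median of all probe sets (5.88). The adjusted p was at most 3.94e-06 for each of these rises and for each of the 15 largest falls.

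The largest falls were led by carriers and enzymes of the barrier capillary. Slc38a5, a glutamine carrier, read 3.24, 4.63 and 3.36 in Lrp5 KO against 10.22 to 10.50 in wild type (median 10.33), a difference of -6.60 ± 0.24 (SE). Slco1c1, which carries thyroid hormone, read 6.16, 7.73 and 6.71 against 12.93 to 13.10 (median 12.98), a difference of -6.14. Slc19a3, a thiamine carrier, read 4.51, 6.01 and 5.10 against 10.82 to 11.22 (median 11.07), a difference of -5.84. In all 3 carriers Lrp5 KO 2 was highest and Lrp5 KO 1 lowest, and no Lrp5 KO array came near the wild-type range. Of the 15 largest falls 11 had a Lrp5 KO mean below the lowest array median, where these data do not show a signal to be above background. Car4, a carbonic anhydrase anchored at the cell surface, differed by -6.23, and Slc22a8, an organic anion carrier, by -5.91. The remaining 10 were Far2 (-5.46), Rad54b (-5.18), Pglyrp1 (-4.95), Islr2 (-4.81), Car5a (-4.78), Kcp (-4.72), Ddc (-4.64), Lrp8 (-4.62), Stra6 (-4.32) and Atp13a5 (-4.31). The 15 rises and 15 falls all passed with each of the 9 arrays left out in turn, at adjusted p of 1.28e-11 to 6.21e-05.

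**Figure D2:**
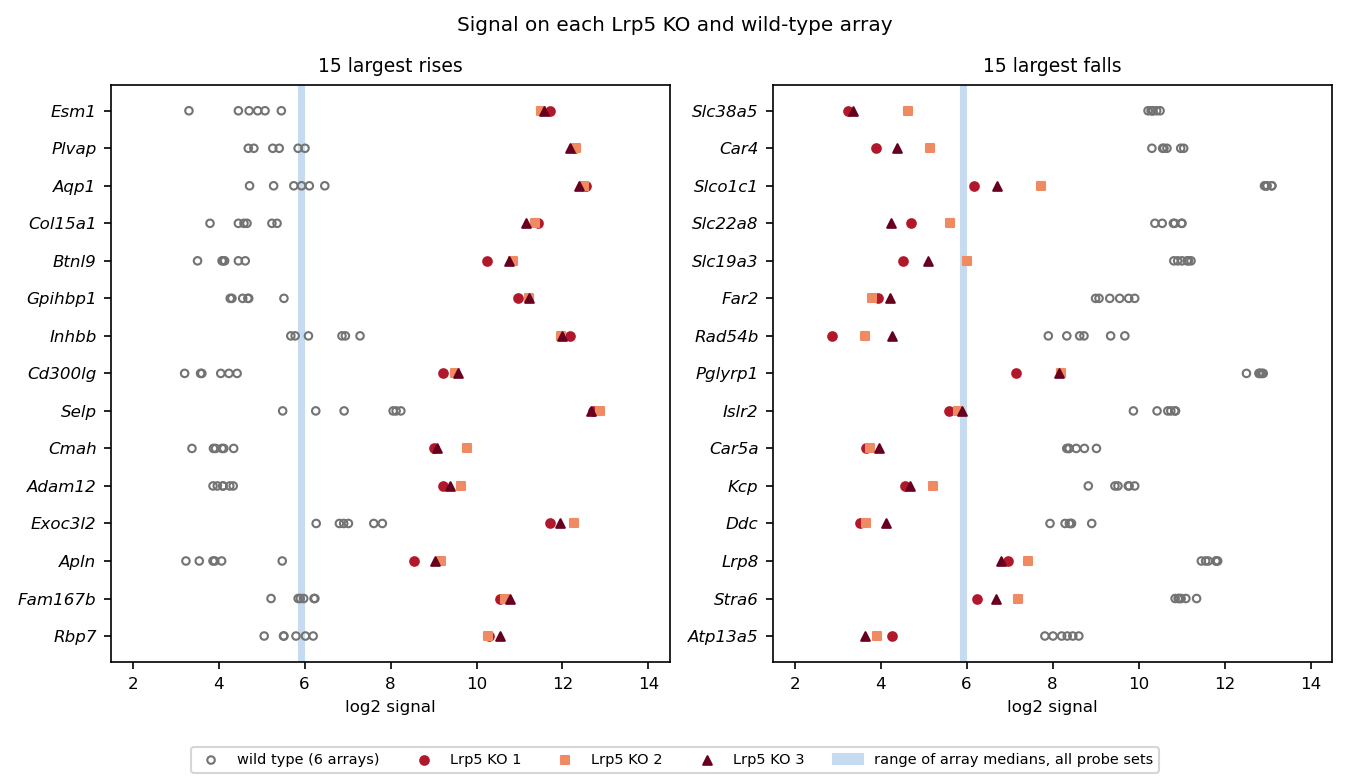
Log2 signal of the 15 largest rises (left) and 15 largest falls (right) on each Lrp5 KO array (filled symbols) and wild-type array (open circles); the blue band spans the medians of all probe sets on the 9 arrays. The 30 genes were taken only from those in which the groups did not overlap, so the gap is a condition of the choice. Lrp5 KO 2 is the highest of the 3 Lrp5 KO arrays in Slc38a5, Slco1c1, Slc22a8 and Slc19a3.

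Among the ligands, receptors and regulators of the pathway, 6 of 20 measured genes fell and none rose (median -0.11). The 6 include Lrp5, the deleted gene, whose fall is no separate result. The co-receptor Lrp6, the closest relative of Lrp5, read 10.81, 11.10 and 11.02 against 11.37 to 11.81 (median 11.58), a difference of -0.58 (adjusted p = 0.00584). Its second probe set differed by -0.63 and did not pass. Reck and Adgra2, which form the receptor complex for Wnt7 ligands in brain endothelium, fell by 2.12 and by 1.07. Reck read 8.89, 9.80 and 9.47 against 11.29 to 11.72 (median 11.51), and Adgra2 10.05, 10.35 and 9.89 against 10.93 to 11.44 (median 11.13). The tetraspanin Tspan5 fell by 1.11. Tspan12, which acts with Frizzled4, did not pass at a difference of 0.39, nor did the receptor gene Fzd4 at -0.20 (11.95, 11.90 and 11.82 against 11.80 to 12.27) or the ligand gene Ndp at -0.15. Znrf3, a ubiquitin ligase that removes Frizzled from the surface, fell by 0.80, but its call ended without any of 7 of the 9 arrays (Lrp5 KO 1 and 3 and wild type 1, 2, 3, 5 and 6, adjusted p of 0.053 to 0.164).

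Below the receptor, 1 of 19 intracellular components and nuclear partners changed (median -0.06). Lef1, the LEF factor that is also a target of the pathway, read 11.75, 11.81 and 11.74 against 12.44 to 12.84 (median 12.67), a difference of -0.89 (adjusted p = 0.00159). Beta-catenin's gene Ctnnb1 differed by -0.20 and did not pass.

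Of 17 measured target genes of beta-catenin, 10 fell and 2 rose (median -0.81). Tnfrsf19, a receptor of the TNF family, read 5.84, 7.47 and 7.17 against 10.71 to 11.46 (median 11.18), a difference of -4.29 ± 0.39 (SE). Axin2, the feedback inhibitor used most widely as a reporter of the pathway, read 7.40, 8.37 and 7.77 against 10.11 to 10.99 (median 10.50), a difference of -2.68. Apcdd1, a membrane inhibitor of Wnt signals, read 9.61, 10.42 and 10.27 against 12.11 to 12.75 (median 12.33), a difference of -2.30, and 5 of its 6 probe sets fell. None of these 3 overlapped, and in each of them Lrp5 KO 1 was lowest and Lrp5 KO 2 highest. The inhibitors Nkd1 and Notum fell by 1.92 and by 1.74, and Fgfbp1, which releases fibroblast growth factors from matrix, by 1.82. Myc went the other way, at 11.38, 11.34 and 11.49 against 8.35 to 10.06 (median 9.24), a difference of 2.20. The second rise, Ccnd1 at 0.75, was at the threshold without Lrp5 KO 2 (adjusted p = 0.05). The falls of Sp5 (-0.96; 0.132 without Lrp5 KO 1 and 0.0643 without Lrp5 KO 3) and Ppard (-0.81; 0.053 to 0.166 without any Lrp5 KO array or wild type 1, 2, 3 or 5) also ended with arrays left out. Nor did Ppard pass in limma on the mean of its probe sets (adjusted p = 0.163).

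**Figure D3:**
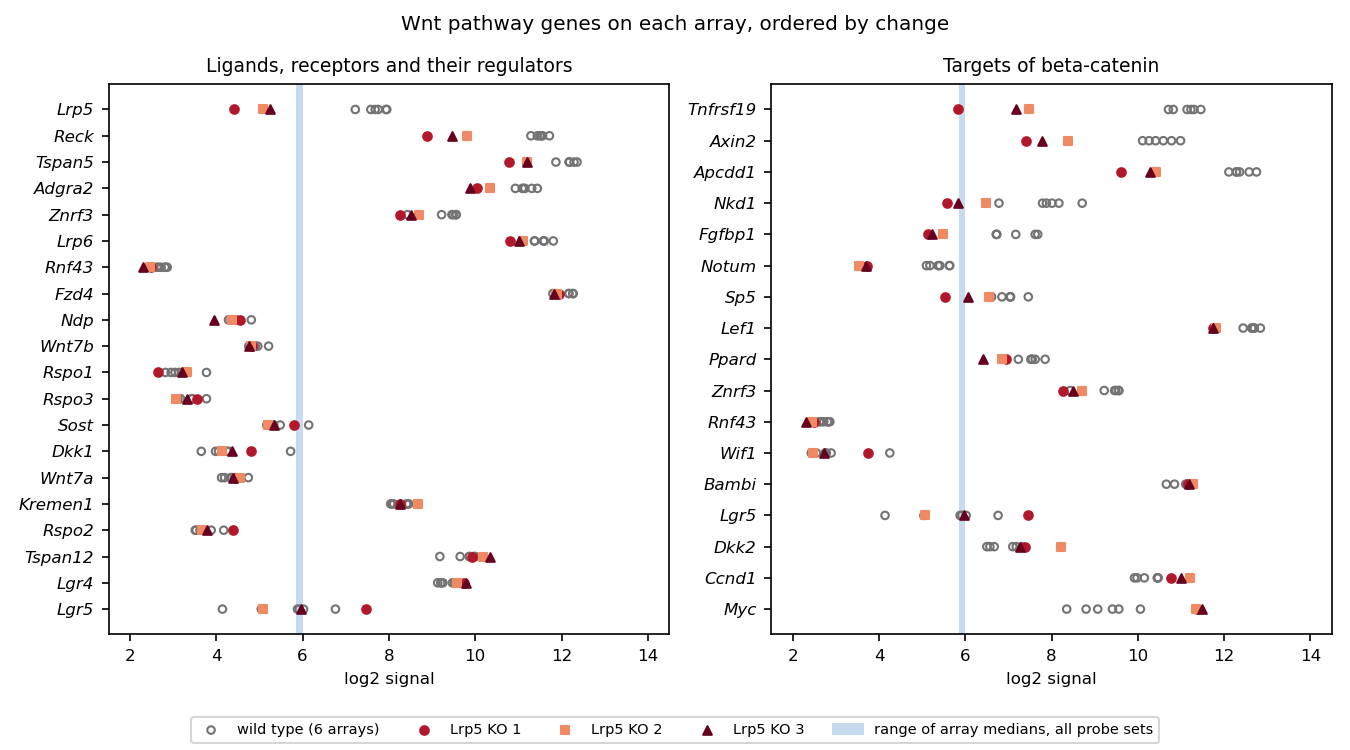
Log2 signal of 20 ligand, receptor and regulator genes (left) and 17 target genes of beta-catenin (right) on each array, from the largest fall at the top to the largest rise at the bottom; filled symbols are Lrp5 KO arrays, open circles wild type, and the blue band the array medians. Lrp5, Reck and Tnfrsf19 are clear of the wild-type range, while Fzd4 lies within it.

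Start-site sequences were available for some of these genes from RefSeq (GRCm38.p6), and the TCF and LEF core CTTTGAT was searched in the 250 bases before each start, on both strands (ATCAAAG on the opposite one). It was in 3.17% of 14368 measured genes with such a sequence, in 2.94% of the 781 higher and 3.54% of the 1073 lower genes. It was in 2 of 10 target genes (Sp5 and Tnfrsf19), in 3 of 14 of the largest falls (Slc19a3, Islr2 and Stra6) and in 2 of 11 of the largest rises (Selp and Cmah). These are matches of letters, and no test was made of the shares. Shown are the strongest fall among the targets, 2 of the largest falls and 1 of the largest rises, 5′ to 3′ on the gene's own strand and ending at the base before the start, with the core in capitals.
Tnfrsf19 (chr14:61037988-61038237, minus strand): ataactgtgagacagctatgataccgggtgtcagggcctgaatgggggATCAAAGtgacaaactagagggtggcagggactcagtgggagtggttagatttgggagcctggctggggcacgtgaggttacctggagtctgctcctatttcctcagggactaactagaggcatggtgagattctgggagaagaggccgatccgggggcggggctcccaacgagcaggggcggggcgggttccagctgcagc
Slc19a3 (chr1:83038449-83038698, minus strand): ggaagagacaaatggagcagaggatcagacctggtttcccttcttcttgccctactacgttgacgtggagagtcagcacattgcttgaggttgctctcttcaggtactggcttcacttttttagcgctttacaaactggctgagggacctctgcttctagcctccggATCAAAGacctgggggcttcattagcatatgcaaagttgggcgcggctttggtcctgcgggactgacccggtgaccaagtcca
Islr2 (chr9:58204320-58204569, minus strand): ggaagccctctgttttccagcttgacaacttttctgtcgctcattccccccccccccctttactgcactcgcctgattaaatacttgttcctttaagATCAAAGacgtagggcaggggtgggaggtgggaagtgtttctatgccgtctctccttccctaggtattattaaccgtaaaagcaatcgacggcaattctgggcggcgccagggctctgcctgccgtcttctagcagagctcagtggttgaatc
Selp (chr1:164115014-164115263, plus strand): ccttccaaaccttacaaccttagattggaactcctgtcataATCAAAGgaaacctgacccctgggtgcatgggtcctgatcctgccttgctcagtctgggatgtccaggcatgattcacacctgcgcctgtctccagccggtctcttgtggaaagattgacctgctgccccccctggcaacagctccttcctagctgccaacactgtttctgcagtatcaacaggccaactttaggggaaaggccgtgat
The windows shown were picked for the match: Tnfrsf19 has 2 starts in the table and Islr2 3, with the core before 1 of them, while Slc19a3 and Selp have 1. A gene counted above as holding the core where any of its windows did. In all 4 windows the core lay on the opposite strand, its first letter 202 bases before that start in Tnfrsf19, 83 in Slc19a3, 153 in Islr2 and 209 in Selp. The first 3 genes fell and Selp rose.

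Both protein families of the receptor pair held changes of other members. Of 10 Frizzled genes, Fzd2 (-1.12) and Fzd6 (-0.84) fell, and Fzd5 rose by 0.63 (median -0.08). With all probe sets averaged for each gene neither fall passed (adjusted p = 0.142 for Fzd2 and 0.107 for Fzd6), and the rise of Fzd5 ended without Lrp5 KO 1 (0.0741) or Lrp5 KO 2 (0.0759). Of 13 genes of the LDL receptor family, to which Lrp5 belongs, 3 fell and 2 rose (median 0.23). The 3 include the deleted Lrp5 itself, beside Lrp6, given above, and Lrp8. Lrp8, a receptor for apolipoprotein E and reelin, read 6.97, 7.42 and 6.79 against 11.46 to 11.84 (median 11.71), a difference of -4.62. Lrp4 read 10.26, 10.26 and 10.24 against 8.62 to 9.27 (median 9.08), a rise of 1.27. Lrp12, up by 0.74, lost its call without any of the Lrp5 KO arrays or wild type 6 (adjusted p of 0.0569 to 0.104).

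Many carriers of the barrier fell, and no member of the list that follows or of the amino acid carrier list passed as a rise. Of 23 genes for sugar, lipid, vitamin, hormone and metal transport 17 fell (median -1.28), and 16 of the 17 kept the call with each array left out. Mfsd2a, which carries lysolipids and restrains transcytosis, read 8.23, 8.26 and 7.47 against 11.87 to 12.17 (median 11.98), a difference of -4.0. The glucose carrier Slc2a1, among the brightest genes, read 13.22, 13.17 and 13.16 against 13.51 to 13.97 (median 13.66), a difference of -0.50 (adjusted p = 0.0102). The monocarboxylate carriers Slc16a1 and Slc16a4 fell by 2.14 and by 2.62, the folate carrier Slc19a1 by 2.63, while the iron exporter Slc40a1 changed by -2.28 and the transferrin receptor Tfrc by -1.30. The zinc carriers Slc39a10, Slc39a8 and Slc30a1 fell by 1.74, by 1.19 and by 0.76. The vitamin carrier Slc5a6 (-0.79) was the one whose call ended (0.0538 to 0.161 without Lrp5 KO 1 or 3 or wild type 1, 2 or 6).

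Of 14 amino acid carriers 6 fell (median -0.60), and 5 of these kept the call with each array left out. The large neutral amino acid carrier Slc7a5 read 10.74, 10.74 and 10.46 against 12.43 to 12.88 (median 12.56), a difference of -1.94, and the cationic carrier Slc7a1 differed by -1.05. The glutamine carrier Slc38a3 differed by -2.53 and the glutamate carrier Slc1a1 by -2.04. Slc6a6, the taurine carrier, differed by -1.07 and lost its call without Lrp5 KO 1 (0.135), Lrp5 KO 2 (0.0806), wild type 1 (0.054) or wild type 2 (0.051). Among 10 ABC pumps 4 fell and 1 rose (median -0.16), all with each array left out. Abcb1a, which encodes P-glycoprotein, the main drug efflux pump of the barrier, read 11.81, 12.14 and 11.99 against 13.08 to 13.18 (median 13.14), a difference of -1.16. Abcg2 fell by 0.63, Abcc4 by 1.16 and Abcc6 by 1.98. The cholesterol exporter Abca1 rose by 0.97, a call that did not pass on the mean of its probe sets (adjusted p = 0.0602).

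Junction genes and vesicle genes changed in part. Of 17 tight junction genes 5 fell and 1 rose (median -0.22), and all 6 calls held with each array left out. Claudin-5, the main barrier claudin (Cldn5), read 11.96, 11.75 and 11.61 against 12.92 to 13.15 (median 13.05), a difference of -1.26. Occludin (Ocln) fell by 3.11 and the tricellular protein Lsr by 2.46, while the scaffold Tjp1 fell by 0.54 and cingulin-like Cgnl1 by 1.12. Jam3 rose by 1.49. The adherens cadherin Cdh5 did not pass. Of 11 genes of fenestrae, caveolae and transcytosis 3 rose and 2 fell (median 0.26). Beside Plvap these were Ehd4 (0.86) and Cavin3 (0.81) upward, and Cavin2 (-0.93) and Nostrin (-1.23) downward. The caveolin genes Cav1 and Cav2 did not pass.

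Of 18 genes typical of capillaries in muscle, heart or fat 11 rose, 1 fell and 6 did not pass (median 1.63), and all 12 calls held with each array left out. Beyond Gpihbp1, Aqp1, Btnl9, Cd300lg and Plvap, the fatty acid genes Fabp4, Lpl and Cd36 rose by 1.96, by 1.82 and by 1.47. Fabp4 read 10.14, 10.89 and 10.92 against 7.51 to 9.12 (median 8.90). Meox2, a homeobox factor of such endothelium, read 5.66, 7.52 and 6.65 against 3.21 to 5.14 (median 3.54), a rise of 2.82. Ldlrad3 fell by 1.16.

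Tip cell genes, which mark the leading cells of a vascular sprout, rose in 15 of 22 cases and fell in 1 (median 0.92). The chemokine receptor gene Cxcr4 read 12.72, 12.28 and 12.54 against 10.44 to 11.23 (median 10.96), a rise of 1.64. Angpt2, an antagonist of Tie2, read 10.64, 10.61 and 10.38 against 8.51 to 9.20 (median 8.78), a rise of 1.73. Kcne3 rose by 4.27, Ramp3 by 3.49, Trp53i11 by 2.23, Nid2 by 2.02 and Lamb1 by 1.96. The growth factor gene Pdgfb, which recruits pericytes, fell by 0.88. All but 1 of the 16 calls held with each array left out: Col4a2 (0.44) lost it without Lrp5 KO 1 (0.105) or Lrp5 KO 2 (0.0669). Dll4 and Flt4 did not pass.

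Of 10 genes of the VEGF axis 5 rose and none fell (median 0.43), all with each array left out. Vegfa read 9.01, 8.76 and 8.96 against 7.41 to 8.13 (median 7.72), a rise of 1.21, and Pgf rose by 0.90. The receptor Kdr read 12.38, 12.32 and 12.16 against 11.14 to 11.84 (median 11.62), a rise of 0.74, and its partners Nrp1 and Nrp2 rose by 0.68 and by 0.82. In the angiopoietin system Angpt2 rose and its receptor gene Tek fell by 0.70, among 6 genes of which 1 rose and 2 fell (median -0.50). The other fall, Angpt1 (-0.77), ended without Lrp5 KO 2 (0.052) or Lrp5 KO 3 (0.144). Of 16 Notch genes 2 rose and 1 fell (median 0.02). The ligand gene Dll1 rose by 1.19 and held its call with each array left out, while Nrarp (0.54) lost it without any one of the 9 arrays (0.0526 to 0.19) and Hey1 (-0.45) without any of 7 (0.0618 to 0.165; it passed without wild type 3 or 5).

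Venous and adhesion genes included some of the wider changes. Of 12 venous genes 3 rose and 1 fell (median -0.10), all with each array left out. The fall was that of Slc38a5 (-6.6), counted above among the amino acid carriers. Selp counts in both the venous and the adhesion list. P-selectin (Selp), which tethers leukocytes to the vessel wall, read 12.71, 12.87 and 12.66 against 5.49 to 8.24 (median 7.49). E-selectin (Sele) read 11.16, 10.57 and 9.95 against 5.85 to 7.44 (median 6.41), a rise of 4.04. Ackr1, the chemokine-binding receptor of venules, read 10.06, 9.83 and 9.68 against 5.38 to 6.55 (median 6.05), a rise of 3.90, and Lrg1 rose by 4.06. Of 12 adhesion genes these 3 (Selp, Sele and Ackr1) were the ones that rose, with none lower (median 0.16). Icam1 and Vcam1 did not pass.

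Of 16 arterial genes 3 rose and 6 fell (median -0.40). Gja4 (0.74), Efnb2 (0.61) and Nrp1 rose. Gkn3, an arterial gene of brain vessels, read 6.09, 8.43 and 7.95 against 10.82 to 11.61 (median 11.41), a difference of -3.83, and alkaline phosphatase (Alpl) differed by -1.66. These 5 calls held with each array left out, while 3 arterial genes were lower without Lrp5 KO 1 and 3 without Lrp5 KO 3.

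Cytokine genes rose in 4 of 19 cases and fell in 2 (median 0.39), and 2 of the 6 calls held with each array left out. These were Il6, at 12.47, 12.27 and 12.26 against 9.75 to 11.84 (median 11.03), a rise of 1.45, and Csf3, at 9.39, 9.56 and 9.32 against 5.58 to 8.63 (median 7.49), a rise of 2.11. In both the wild-type arrays were widely spread and still below all Lrp5 KO arrays. Without Lrp5 KO 2 or Lrp5 KO 3, 2 cytokine genes rose, and without Lrp5 KO 1 or 3 none fell. Of 18 interferon and MHC class I genes 1 rose (median 0.24): Iigp1, by 1.69, and not without Lrp5 KO 2 (0.0725) or Lrp5 KO 3 (0.0869).

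Genes of growth factor signals of the TGF-beta family rose in 5 of 23 cases and fell in 1 (median 0.22). Inhbb, the beta B chain of activin, read 12.17, 11.97 and 11.98 against 5.68 to 7.29 (median 6.48). Bmp6 rose by 2.87 and Bmp2 by 1.18. These 3 held with each array left out, whereas Tgfb1 (1.17) did not without Lrp5 KO 2 (0.0561), Bmp4 (1.55) not without Lrp5 KO 3 (0.0585), and the fall of Ltbp4 (-0.69) not without any of 7 arrays (0.0506 to 0.231; it passed without Lrp5 KO 2 or wild type 6). On the mean of its probe sets Tgfb1 differed by 0.35 and did not pass in limma (adjusted p = 0.367). Of 11 genes of the IGF axis 6 rose and 2 fell (median 0.36). Igf1 rose by 1.99 and its receptor gene Igf1r fell by 1.60, at 10.42, 10.40 and 10.48 against 11.89 to 12.12 (median 12.06). The binding proteins Igfbp3, Igfbp4 and Igfbp5 rose by 1.22, by 1.21 and by 0.91, and Igf2r by 0.99. The other fall, Igf2 (-1.43), ended without Lrp5 KO 1 (0.0512), and the rise of Igfbp7 (0.31) without any array but wild type 4 (0.051 to 0.121).

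Among matrix genes more rose than fell. Of 19 collagen genes 11 rose and 1 fell (median 0.84), and 9 of the 12 calls held with each array left out. Col13a1, a transmembrane collagen, read 9.19, 9.23 and 9.21 against 4.65 to 5.66 (median 5.11), a rise of 4.06. Col6a3 rose by 2.79, Col5a3 by 2.64, Col18a1, the source of endostatin, by 1.64, Col4a3 by 1.30, Col4a4 by 1.29 and Col4a1 by 0.49. The fibrillar Col1a1 read 8.76, 8.89 and 8.87 against 10.16 to 11.17 (median 10.74), a difference of -1.85, while Col1a2 and Col3a1 did not pass. Of 27 laminin, integrin and other matrix genes 12 rose and 4 fell (median 0.40), 10 of the 16 with each array left out. Fibronectin (Fn1) read 11.22, 11.45 and 10.81 against 13.06 to 13.25 (median 13.18), a difference of -2.01, and the proteoglycan Spock2 differed by -2.51. Itgb3 rose by 2.32, Itgb4 by 1.52, Itga9 by 1.48, perlecan (Hspg2) by 1.17, Lama2 by 0.99 and Lama4 by 0.85. Without Lrp5 KO 1 or Lrp5 KO 3 the lower genes of this list were 2.

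Of 19 matrix proteases and inhibitors 9 rose and 2 fell (median 0.54), 7 of the 11 with each array left out, all of them rises. Mmp2 read 8.09, 8.78 and 8.13 against 4.37 to 6.02 (median 5.01), a rise of 3.19, and its activator Mmp14 rose by 2.26. The inhibitor Timp1 rose by 2.57, Adam19 by 2.39, Adamts9 by 1.68 and Adamts4 by 1.36. Both falls ended without Lrp5 KO 1 or Lrp5 KO 3. Of 23 guidance genes 8 rose and 1 fell (median 0.34). Sema3c, a secreted semaphorin, read 7.86, 8.77 and 8.69 against 11.16 to 11.86 (median 11.63), a difference of -3.15. Sema3f rose by 2.50, Slit3 by 1.88, Sema6d by 1.23 and Robo1 by 0.89, the last not on the mean of its probe sets (adjusted p = 0.0857). Plxnd1 (0.95) was at 0.0504 without Lrp5 KO 2.

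Of 26 endothelial transcription factor genes 9 fell and 4 rose (median -0.20), and 9 of the 13 held with each array left out. Foxq1 and Foxf2, forkhead factors of central nervous system vessels, fell by 1.42 and by 0.95, and Foxl2 by 2.33. Tbx1 read 5.58, 6.88 and 6.42 against 9.35 to 9.87 (median 9.77), a difference of -3.40, and Gata2 differed by -0.75. Pparg, a lipid-sensing nuclear receptor, rose by 2.13, Meox1 by 1.97 and Foxc2 by 1.04. Without Lrp5 KO 2 the lower factors were 5. Of 17 flow-responsive and immediate early genes 2 fell (11.8%, near the 12.9% of all genes; median -0.17): the flow-induced factor Klf2 by 1.04, and the nitric oxide synthase Nos3 by 0.75, the latter not without Lrp5 KO 3 (0.0526). Fos, Jun and Egr1 did not pass.

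Of 22 cell cycle genes 7 rose and 1 fell (median 0.31). The proliferation marker Mki67 read 9.07, 8.39 and 8.10 against 6.18 to 7.55 (median 6.80), a rise of 1.69. Birc5 rose by 2.43, the kinase Cdk1 by 2.23 and Ccnb2 by 1.73, while Plk1, Top2a, Aurkb, Mcm2, Tyms and Rrm2 did not pass. The inhibitor Cdkn1c read 6.99, 7.09 and 7.05 against 7.92 to 8.50 (median 8.22), a difference of -1.15. Without Lrp5 KO 2 the rises were 4. Of 19 hypoxia genes 2 rose, Vegfa and Egln3 (1.49), and 6 fell (median 0.00). Of the falls, Ankrd37 (-1.37) and Slc2a1 held with each array left out, while Bnip3, Egln1, Kdm3a and Ndrg1 all lost the call without Lrp5 KO 1. Counted over the whole list, genes outside the 6 included, lower genes were 3 without Lrp5 KO 1 and 3 without wild type 6. They were 2 without Lrp5 KO 3, wild type 1 or wild type 2. Of 14 glycolysis genes 1 rose (median 0.17), Pfkp by 0.48, a call that passed without Lrp5 KO 3 or wild type 3 and with none of the other arrays left out (0.0587 to 0.244). Of 20 respiratory chain genes none passed in limma and 1 had an unadjusted p under 0.05 (median -0.10).

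Metabolic genes of the barrier changed in both directions. Of 19 genes of xenobiotic metabolism 6 fell and 1 rose (median -0.19), all with each array left out. Gsta4, a glutathione transferase, read 9.55, 9.32 and 9.41 against 11.91 to 12.53 (median 12.25), a difference of -2.85. The monoamine oxidases Maoa and Maob fell by 1.62 and by 2.36, Cyp39a1 by 1.11, Cyp2d22 by 1.08 and Ephx1 by 0.86, while the peptidase Anpep rose by 1.25. Of 14 carbonic anhydrases Car4 and Car5a fell and Car8 (3.06) and Car13 (1.77) rose (median 0.18), all with each array left out. Of 16 sphingolipid genes 6 rose and 2 fell (median 0.18). Degs2, a dihydroceramide desaturase and hydroxylase, read 6.16, 7.69 and 7.22 against 10.05 to 10.67 (median 10.54), a difference of -3.45, where its relative Degs1 rose by 0.65. The other fall, Cers4 (-0.88), ended without any array but Lrp5 KO 2 or wild type 4 (0.0678 to 0.255). Ugcg rose by 1.23, Spns2 by 1.17 and the receptor S1pr3 by 0.97. Of 14 potassium channel genes 4 rose and none fell (median 0.43), with Kcne3, Kcne4 (1.08) and Abcc9 (0.87) held with each array left out.

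**Figure D4:**
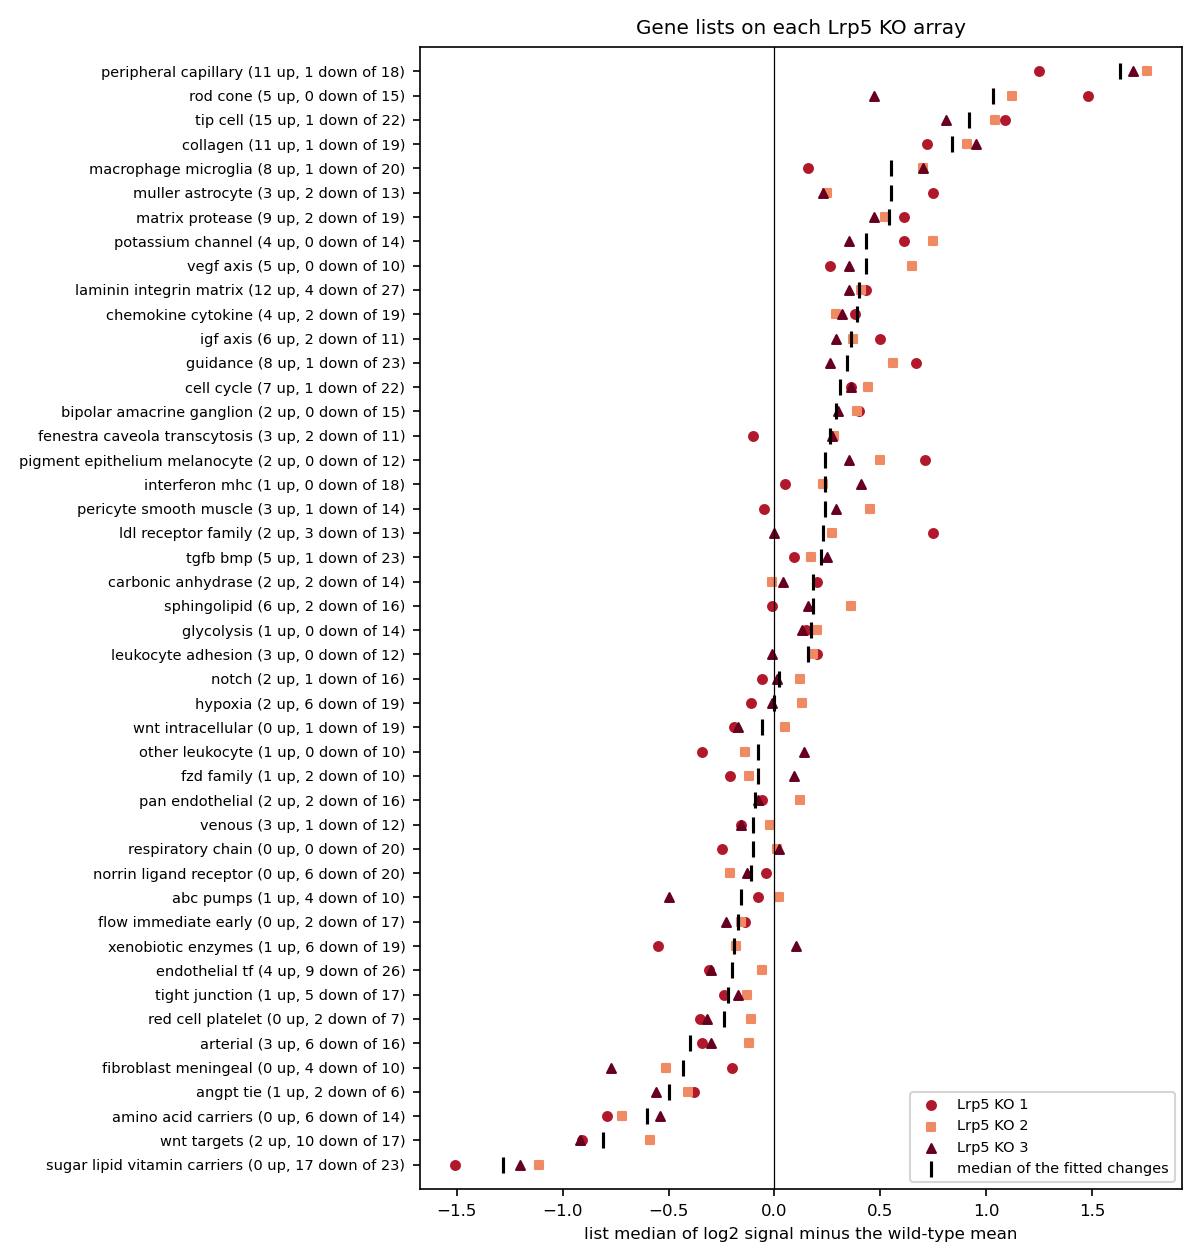
Median over each gene list of the log2 signal minus the wild-type mean, for each Lrp5 KO array, with the median of the fitted changes as a bar; numbers in brackets are genes that rose and fell of those measured. The carriers of sugars, lipids, vitamins, hormones and metals lie lowest on all 3 arrays (-1.51, -1.11 and -1.20), and the rod and cone genes are widely spread (1.48, 1.12 and 0.47).

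Markers of other cells moved with the genotype in part. Rod and cone markers rose in 5 of 15 cases (median 1.03), and their summed log2 level was 10.91 to 11.99 in Lrp5 KO and 10.06 to 10.67 in wild type, with no overlap. Rod transducin (Gnat1) read 9.98, 9.42 and 8.77 against 7.28 to 7.92 (median 7.76), and was the one photoreceptor call of the 5 that held with each array left out. Counted over all 15 markers, genes outside the 5 included, the rises were 1 without Lrp5 KO 1 and 3 without Lrp5 KO 2 or without wild type 1. Opn1mw, Pde6h and Rcvrn lost the call without Lrp5 KO 2. Markers of Müller cells and astrocytes were 3 higher and 2 lower of 13 (median 0.55), with a summed level of 15.42 to 15.66 against 15.09 to 15.38. Apolipoprotein E (Apoe), up by 1.49, held with each array left out, and was the only call without Lrp5 KO 1 and the only rise without Lrp5 KO 2 or wild type 6. Markers of bipolar, amacrine and ganglion cells were 2 higher of 15 (13.3%, near the 12.9% of all genes), Thy1 (3.31) and Trpm1 (1.31), with summed levels of 12.20 to 12.56 against 11.81 to 12.29. Thy1 read 8.38, 8.64 and 8.56 against 4.59 to 5.65 (median 5.27), while most of the list, such as Pax6 and Nefl, did not pass. The part of neural RNA in the results above was not tested.

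Macrophage and microglia markers were 8 higher and 1 lower of 20 (median 0.55), with a summed level of 14.89 to 15.35 against 13.91 to 15.09, which overlapped. The class II genes H2-Aa, H2-Ab1 and Cd74 rose by 2.82, by 2.47 and by 1.98, Mrc1 by 3.18 and Pf4 by 1.60. Adgre1 (1.34), Cd163 (1.59) and Lyve1 (1.15) rose as well but lost the call with arrays left out (Adgre1 without Lrp5 KO 2 or 3, 0.0649 and 0.055; Cd163 without Lrp5 KO 1 or 3, 0.0747 and 0.0842; Lyve1 without any array but wild type 3, 0.0541 to 0.145). Cx3cr1, Csf1r, Aif1 and C1qa did not pass. The fall of Tmem119 (-1.19) ended without any of 6 arrays (Lrp5 KO 1 and 3 and wild type 2, 3, 5 and 6, 0.0541 to 0.21). Without Lrp5 KO 3 there were 5 higher. Of 10 markers of other leukocytes 1 rose, Cd4 by 0.96, and not without any of the 9 arrays (0.0513 to 0.196), and the summed level was 9.78 to 11.21 against 9.72 to 11.30. Pericyte and smooth muscle markers were 3 higher and 1 lower of 14 (median 0.24; 15.49 to 15.81 against 15.51 to 15.74). Abcc9 and Anpep rose and Vtn fell by 0.84, and these 3 held with each array left out, while Pdgfrb, Rgs5 and Acta2 did not pass. Fibroblast markers were 4 lower of 10 (median -0.43; 12.32 to 12.67 against 12.70 to 13.18), Col1a1 alone without Lrp5 KO 1. With single arrays left out Col1a2 differed by -0.03 to 0.21, Lum by 0.21 to 0.55 and Fmod by 0.41 to 0.96. None of these passed, nor did Col3a1, Dcn or Dpt. Red cell and platelet markers were 2 lower of 7 (median -0.24; 10.24 to 10.49 against 11.11 to 11.58), the haemoglobin gene Hbb-b2 (-1.17) and Alas2 (-1.95). The haemoglobin gene Hba-a1 did not pass (0.05 to 0.16 with single arrays left out), nor did Slc4a1, Ppbp, Itga2b or Gp9. Pigment cell markers were 2 higher of 12 (median 0.24; 10.80 to 11.63 against 10.19 to 11.47), of which Mitf, up by 1.31, held with each array left out, and Dct (1.49) passed without wild type 4 or 6 and with none of the other arrays left out (0.0566 to 0.209). The part of these cells in the results was not tested, and in pooled RNA fewer cells of a kind and less RNA per cell cannot be told apart.

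The 3 Lrp5 KO arrays differed most among themselves in genes where Lrp5 KO 1 was set against the other two. Among the 10 called genes with the widest range in Lrp5 KO, Lrp5 KO 1 was the lowest in Gpr65, Gkn3, Sgpp2, Rad1, Gstm7, Stac and Islr. Gkn3 spanned 6.09 to 8.43, Sgpp2, an S1P phosphatase, 6.02 to 8.23, and Gpr65, a proton-sensing receptor, 4.15 to 6.55. Lce3f was highest on Lrp5 KO 1 (5.42, 4.05 and 3.13), and its call ended without Lrp5 KO 1 (0.26), Lrp5 KO 2 (0.0776) or any wild-type array but 4 (0.0639 to 0.0789). Rad1 and Islr lost theirs without Lrp5 KO 1 (0.126 and 0.0551). Galc and Tmem87a were lowest on Lrp5 KO 2, Tmem87a at 10.22, 8.06 and 10.14. Over all genes the median SD among the Lrp5 KO arrays was 0.251, and 0.139 without Lrp5 KO 1.

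At the other end of the scale, the 10 brightest genes that passed changed by less than 1 log2 unit. Igfbp7, Col4a1, Col4a2, Clu, Ypel2, Rell1, Fosl2, Nrp1 and Lmna rose by 0.31 to 0.72, and Slc2a1 fell. Col4a1 read 13.63, 13.56 and 13.46 against 12.90 to 13.18 (median 13.05). Ypel2 read 13.31, 13.15 and 12.98 against 12.19 to 12.62 (median 12.44). Col4a1, Slc2a1, Ypel2, Rell1 and Nrp1 held with each array left out. Clu (0.052 to 0.114 without Lrp5 KO 1, Lrp5 KO 2 or wild type 6), Fosl2 (0.0855 and 0.0508 without Lrp5 KO 1 and 3) and Lmna (0.0561 and 0.0796 without Lrp5 KO 2 and 3) did not.

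In mice of mixed background, DNA of the strain that was targeted can stay linked to a deleted locus, so the neighbours of Lrp5 on chromosome 19 were read. Lrp5 lies near the start of the chromosome, which left 6 measured genes on that side and 10 on the other. Of these 16 none rose and 2 fell (median 0.04), where 12.9% of all genes changed. Cpt1a, the carnitine palmitoyltransferase of fatty acid oxidation, read 9.38, 9.60 and 9.21 against 10.14 to 10.34 (median 10.27), a difference of -0.87, and its other 2 probe sets differed by -0.79 and -0.76 without passing. The second, Chka at -0.45, lost its call without Lrp5 KO 2 or 3 or any wild-type array but 4 (0.0552 to 0.233).

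Lrp5 KO was set directly against the other mutants. Between Lrp5 KO and Fz4 KO 41 genes (0.225%) differed, 12 higher and 29 lower in Lrp5 KO. Without single arrays the count was 11 (Fz4 KO 3), 18 (Lrp5 KO 3), 20 (Fz4 KO 1), 24 (Lrp5 KO 1), 26 (Lrp5 KO 2) or 38 (Fz4 KO 2). Between Lrp5 KO and Norrin KO 2171 genes (11.9%) differed, 442 higher and 1729 lower. That count was 668 without Lrp5 KO 1, 987 without Lrp5 KO 3, 1036 without Norrin KO 1 and 1274 without Norrin KO 3, so it rested on more than 1 array. Fitted on the 2 groups alone, 198 genes differed from Norrin KO and 5 from Fz4 KO, and with arrays of the same number as a block 0 (limma; 3803 at an unadjusted p under 0.05) and 1. Fzd4, deleted in Fz4 KO, gave the widest difference from that group, with a mean of 11.89 in Lrp5 KO and a change from wild type of -7.87 in Fz4 KO. All 3 mutants were compared with the same wild-type arrays, so their changes from wild type are given side by side and not as independent results.

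In 28 genes Lrp5 KO differed from both other mutants in the same direction, 20 below and 8 above. The 28 depended on the arrays: with each mutant array left out in turn, 9 (without Fz4 KO 3) to 26 of them passed both tests again, and 8 did so every time, namely Lrp5, Galc, Vsig4, Fam167a, Gja5, Mmrn1, Wdfy1 and Lsr. In 16 of the 20 lower genes the means of both other mutants lay above wild type. In 10 of the 16 Lrp5 KO lay above it too, by less, as the choice of genes requires. In 6 it lay below, where Lrp5 itself and Wdfy1 (-0.68) fell. The complement receptor gene Vsig4, a marker of resident macrophages, had a mean of 2.64 in Lrp5 KO, 2.53 in wild type, 5.46 in Fz4 KO and 6.67 in Norrin KO. The arterial gap junction gene Gja5 had means of 4.46, 4.27, 6.31 and 5.71 in the same order. Mmrn1 and Fam167a rose against wild type by 1.13 and by 1.96 in Lrp5 KO, beside 2.74 and 3.85 in Fz4 KO and 3.07 and 3.50 in Norrin KO. Adam12, up by 5.30 in Lrp5 KO, changed by 6.39 and 6.85 in the others.

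Galc, the lysosomal galactosylceramidase, went below wild type in Lrp5 KO, at 5.10, 3.43 and 5.58 against 7.87 to 8.75 (median 8.36), a difference of -3.60, where Fz4 KO differed by -0.27 and Norrin KO by 0.47. Its other 2 probe sets differed by 0.31 and -0.07 and did not pass. Ctr9 was similar, at -3.11 in Lrp5 KO with -1.05 in Fz4 KO and -0.50 in Norrin KO, and its other 4 probe sets differed by -0.40 to -0.67 without passing.

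In each of the 8 genes above both other mutants, all 3 mutants lay below wild type. That Lrp5 KO was then nearest to wild type follows from the choice of these genes. Lsr, of the tricellular junction, fell by 2.46 in Lrp5 KO, where the changes were -4.0 in Fz4 KO and -3.98 in Norrin KO. The carriers Slco1a4 and Abcb1a changed by -1.72 and -1.16 in Lrp5 KO, by -2.95 and -1.81 in Fz4 KO and by -2.98 and -1.90 in Norrin KO. Itm2a changed by -1.76, -2.87 and -2.61, Paqr5 by -1.49, -2.87 and -3.09, and Vtn by -0.84, -2.01 and -2.40 in that order. Pcp4l1 and Uvssa did not pass against wild type in Lrp5 KO. With each of the 9 mutant arrays left out in turn, Lsr passed both tests 9 times and Slco1a4 8 times. Itm2a did so in 6 of these runs, Vtn and Pcp4l1 in 4, Abcb1a in 3, and Paqr5 and Uvssa in 2. Differences from Lrp5 KO were 1.54 (Fz4 KO) and 1.52 (Norrin KO) for Lsr, and 0.64 and 0.74 for Abcb1a.

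**Figure D5:**
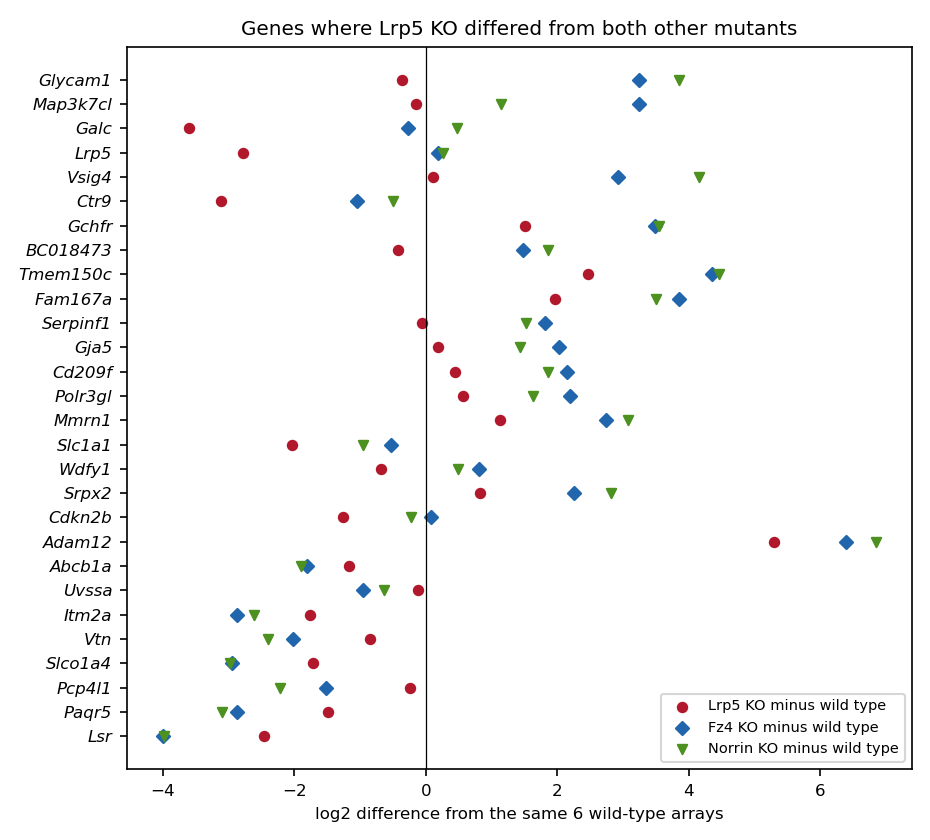
Log2 difference from the same 6 wild-type arrays in Lrp5 KO (circles), Fz4 KO (diamonds) and Norrin KO (triangles) for the 28 genes in which Lrp5 KO differed from both other mutants in the same direction. Galc, Lrp5 and Ctr9 are lowest in Lrp5 KO, and the bottom 8 genes lie below 0 in all 3 mutants with Lrp5 KO nearest to 0. The place of Lrp5 KO relative to the other mutants is a condition of the choice.

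Other wide differences between the mutants were read the same way. Against Fz4 KO, the interferon-inducible Ifi202b and the protease Ctse were lower in Lrp5 KO (their changes from wild type were 0.01 and 0.55 in Lrp5 KO, 5.21 and 4.27 in Fz4 KO), as were Glycam1 (-0.36 and 3.24) and Map3k7cl (-0.14 and 3.24). The interferon-inducible Ifi213 was higher, with a rise of 1.38 in Lrp5 KO beside -0.35 in Fz4 KO. Against Norrin KO, Ifi44l and Gbp2b were lower (-0.25 and -0.39 in Lrp5 KO, 5.06 and 4.49 in Norrin KO). Csf3, the granulocyte growth factor gene, was higher, at 2.11 in Lrp5 KO and -0.72 in Norrin KO. The others of the 5 widest were Csn1s2a, Ccdc30, Isl1, a factor of retinal bipolar and ganglion cells, and Neurod4, a factor of retinal neurons. None of these 4 passed between Lrp5 KO and wild type.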

How the data were processed

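Signals of 45101 probe sets on 15 Affymetrix arrays were used as deposited by the authors, on a log2 scale; per the submitters' processing notes they were made with RMA (settings not given in the sources used here). Of these probe sets, 34958 had 1 gene symbol, 932 several and 9211 none. The brightest probe set by mean signal over all arrays represented each of 18194 genes (9012 had more than 1). Group means of all 15 arrays were fitted with limma 3.58.1 in R 4.3.3 (lmFit, contrasts.fit, eBayes), and p-values were adjusted by the Benjamini-Hochberg method over all genes, with a threshold of 0.05. The code was tested on simulated data. Genes were named by rule: Lrp5, the 15 largest rises and falls without overlap, list members, the 5 widest differences each way from each other mutant, the 10 neighbours on each side, and the 10 called genes of widest range and of highest signal. Others were chosen after their values were seen. The members and lists were chosen with earlier results of these data known. A list's summed level is the log2 of its summed linear signals. Left-out arrays, scaling, probe set and block alternatives were run. The number of arrays limits the precision.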

Additional observations from a re-analysis of the deposited data

Results flagged for a closer look

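Genes named here and the summed levels of the cell marker lists were tested for a wild-type array far from the other 5 (by Dixon's critical value for 6 samples). In 21 of the 287 tests 1 array stood apart, all of them for genes, and chance gives about 1 in 20. Wild type 4 was the array in 10 of them. It was the lowest in Cers4 (7.71), Fabp4 (7.51), Islr (6.94), Itgb3 (5.63), Maob (6.84), Ugcg (9.14) and Znrf3 (8.43), and the highest in Cd36 (8.30), Ndp (4.81) and Robo1 (10.02). Fabp4 read 8.62 to 9.12 on the other wild-type arrays, Itgb3 7.48 to 8.34, Maob 8.12 to 8.43 and Znrf3 9.22 to 9.56. Wild type 3 was the lowest in Nrp1 (12.15), Slc39a10 (12.57) and Tspan5 (11.87), and the highest in Bmp4 (7.96) and Pfkp (10.90). Wild type 2 was the highest in Apln (5.48), Gpihbp1 (5.52) and Ifi44l (3.48). Wild type 5 was the lowest in Car8 (3.26) and Pglyrp1 (12.51), and wild type 6 in Col4a3 (8.62).

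The change from wild type differed between Lrp5 KO and Fz4 KO in 41 genes and between Lrp5 KO and Norrin KO in 2171, each by limma's test of the difference itself. Among probe sets with several or no gene symbols, which entered no comparison above, 88 were higher and 153 lower in Lrp5 KO than in wild type, of 10092 tested.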

How the results depend on the processing

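The change of Lrp5 stayed between -2.95 and -2.47 in every alternative run. With gene by gene array weights 1966 genes were higher and 2445 lower, 225 differed from Fz4 KO and 3426 from Norrin KO. With each probe set on its own the higher count was 1574, and 63 and 3275 probe sets differed from Fz4 KO and Norrin KO. With at least a 2-fold change as well, 535 were higher, 523 lower and 1029 differed from Norrin KO. Against wild type 1 to 3, 659 were higher. Against wild type 4 to 6, 613 were lower. Without both Lrp5 KO 1 and wild type 4, 877 were lower. With arrays matched by spike controls as a block 829 were lower, and 834 (with 1047 higher) with Lrp5 KO 1 to 3 matched with wild type 4 to 6, an alternative added after seeing the data. Among genes above the median gene 27 differed from Fz4 KO. With only the 2 groups compared, 5 differed from Fz4 KO and 198 from Norrin KO. With single arrays left out, 667 to 1155 were higher, 697 to 1648 lower, 11 to 38 differed from Fz4 KO and 668 to 2678 from Norrin KO. The labels do not say that numbers pair the arrays, and the deviations of same-numbered arrays correlated at -0.125, 0.19 and 0.106. With the replicate block on the 6 arrays numbered 1 to 3, 334 were higher, 367 lower, 1 differed from Fz4 KO and 0 from Norrin KO in limma, where 3803 had an unadjusted p under 0.05. Without the block on the same 6 arrays, also added after seeing the data, these were 514, 621, 5 and 198. Of the 701 genes called with the block, 667 were among the 2347, all in the same direction. Top2a, at -0.02 without passing, was 0.53 (adjusted p = 0.0363) on the mean of its probe sets. The cause of these changes was not tested. The higher share of called genes was 43.7%, but 54.1% without Lrp5 KO 1, 32.2% without Lrp5 KO 2 and 55.9% against wild type 4 to 6.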
